A study of Mus musculus with 9 samples.

Results

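The 38 genes described here encode proteins of synaptic vesicles and dense-core granules and of the machinery that docks and fuses them, together with Sez6, a neuronal membrane protein. They were taken as a list of symbols and looked up in the deposited count table, which held all 38 among its 24503 gene rows. A filter on low counts kept 35 of the 38 among the 13560 genes tested. Syt2, Syt5 and Sv2b did not pass it. Transcripts were measured by sequencing of mRNA from primary mouse neural stem cells, which had been prepared from mouse cortex at E13.5 and enriched as neurospheres. The cells were expanded on laminin (5 µg/mL) with FGF at 10 ng/mL and EGF at 20 ng/mL, conditions in which neural stem cells keep dividing. All 3 groups carried the floxed allele Phf2flox/flox in an otherwise wild type background. One group received virus with a non-targeting short hairpin RNA (shNT). The others received a hairpin against Rad21, either shRad21 #1 (shRad21_1 below) or shRad21 #2 (shRad21_2), and each group had 3 libraries. Rad21 encodes the kleisin subunit that closes the cohesin ring. Separate cultures or embryos are not named for the replicates, so that p-values measure only the spread between these libraries, which may be technical.

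Synaptic vesicles and dense-core granules release their contents when calcium enters the cell. Many synaptotagmins, though not all, bind the calcium. The SNARE proteins syntaxin, SNAP-25 and VAMP pull the membranes together, and complexins hold the assembled SNAREs ready. RIM, Munc13 and RAB3 proteins dock and prime the vesicle. Granins are the acidic cargo proteins around which granules form. These genes are best known from neurons and endocrine cells, and many carry sites for the repressor REST, which keeps neuronal genes low in stem cells; some granins are also induced through the cAMP response element, the palindrome TGACGTCA bound by CREB family factors.

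The largest fall in the list was that of the granule cargo gene Scg2, and the stretches before the RefSeq start sites of the listed genes (build GRCm38.p6, the same coordinates as mm10) were searched for TGACGTCA on both strands, which for this palindrome are 1 search. The window was the 250 bases before each start. It held the motif in 508 of 32851 RefSeq windows (1.55%) and in 3 of the 35 windows of the 26 listed genes that had an entry (8.57%). The 3 were Scg2, Chgb and Syn1. The listed genes without an entry were not searched: Syt4, Syt5, Syt7, Syt12, Syt13, Syt17, Vgf, Snap25, Vamp2, Syn3, Rims2 and Sez6. Each match is shown as 30 bases, 5′ to 3′ on the strand of the gene, with the motif in capitals. The Scg2 stretch is chr1:79440076-79440105 on the minus strand, its motif ending 60 bases before the RefSeq start and inside an annotated GENCODE exon. The Chgb stretch is chr2:132781559-132781588 on the plus strand, its motif ending 64 bases before the RefSeq start and also inside a GENCODE exon. The Syn1 stretch is chrX:20921059-20921088 on the minus strand, its motif ending 151 bases before the RefSeq start and upstream of the GENCODE gene. Chgb and Syn1 are shown because they held a match, a choice made after the search.
Scg2: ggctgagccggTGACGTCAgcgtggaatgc
Chgb: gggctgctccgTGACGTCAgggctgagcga
Syn1: caaaggctgacTGACGTCActcactagccc

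Scg3 and Scg5, the other granule cargo genes that were lower under shRad21_2, held 0 matches in their windows. Their upstream stretches outside the GENCODE gene are printed whole, so that they can be set beside the 3 sites above. Scg3 is given over 250 bases (chr9:75684057-75684306, minus strand) and Scg5 over 220 bases (chr2:113829122-113829341, minus strand). A match is a description of these letters and not evidence of binding, and the absence of a match says only that the palindrome is not in the window.
Scg3: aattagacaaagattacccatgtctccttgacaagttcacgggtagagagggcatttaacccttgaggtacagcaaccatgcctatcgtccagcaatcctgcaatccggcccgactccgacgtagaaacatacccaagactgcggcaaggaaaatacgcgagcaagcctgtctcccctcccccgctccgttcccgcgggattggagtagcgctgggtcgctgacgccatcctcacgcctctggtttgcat
Scg5: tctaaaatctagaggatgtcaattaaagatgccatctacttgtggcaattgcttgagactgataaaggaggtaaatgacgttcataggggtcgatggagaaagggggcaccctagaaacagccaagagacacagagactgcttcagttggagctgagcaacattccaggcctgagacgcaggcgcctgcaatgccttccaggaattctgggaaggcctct

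Rad21 mRNA was lower in all 6 libraries with a Rad21 hairpin than in the shNT libraries. It measured 531, 450 and 456 CPM with shNT, 187, 174 and 178 CPM with shRad21_1, and 82.0, 91.2 and 82.5 CPM with shRad21_2, where CPM is counts per 1000000 of the TMM-adjusted library total and libraries are always given in the order of replicates 1, 2 and 3. Library totals ran from 34780003 to 46644607 counts, so that 3 counts were worth 0.0664 to 0.0880 CPM. Replicates 2 and 3 of shNT and of shRad21_1 were much closer to each other than other libraries were: the chi-square per gene was 2.92 and 2.07 for these pairs, against 19.2 to 57.8 for the other pairs within a group. These pairs still differed by more than sampling noise, and the libraries were kept as separate replicates. Replicate 1 of shRad21_1 stood apart from its group on the first principal component (62.7% of the variance), at 9.97 against -15.5 and -15.7, toward the shRad21_2 libraries at 40.6 to 44.9. Calls on the listed genes that changed when these libraries were summed or replicate 1 was left out are named with the results.

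The stem cell identity on the labels was checked against marker genes. Of 20 neuron markers, Stmn2, Neurod6 and Gad2 stayed at or below 0.111 CPM in all 9 libraries and did not pass the filter on low counts, whereas 16 did pass it, among them Map2, Dcx, Gap43, Dlx1, Dlx2 and Gad1. The stem cell markers, among them Nes, Sox2 and Pax6, summed to 8862 to 9223 CPM with shNT, 7304 to 8666 with shRad21_1 and 7799 to 8802 with shRad21_2. Of the neuroendocrine markers, Th and Dbh had 0 counts in all 9 libraries, while the 6 markers of that list summed to 164 to 202 CPM with shNT. In bulk RNA, fewer cells of a type and less RNA per cell cannot be told apart.

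Levels differed widely between the 38 genes. Scaled by exonic length, the highest in shNT cells was Syt11, a synaptotagmin that does not bind calcium, at 74.9 ± 6.84 CPM per kb (SD, n = 3), followed by Sez6 at 35.6 ± 5.36, the complexin Cplx2 at 28.0 ± 4.05 and the granin-family protein Scg3 at 15.7 ± 0.644. Next came the vesicle SNARE Vamp2 at 11.4 ± 1.10 CPM per kb and Rab3a at 9.47 ± 0.369. Syn2 (6.20 ± 0.186) and Syn1 (5.98 ± 0.845), neighbours in the order, differed by less than the SD of Syn1. The neuronal calcium sensor Syt1 stood only at 0.955 ± 0.0818 CPM per kb, and the neuronal SNARE Snap25 at 0.105 ± 0.0427, far below its partner Vamp2. Sv2b had 0 counts in the 3 shNT libraries, and Syt2 had 3 counts over all of them. Under shRad21_2 the order changed at the top, with Sez6 between 2.60 and 4.72 CPM per kb.

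**Figure D1:**
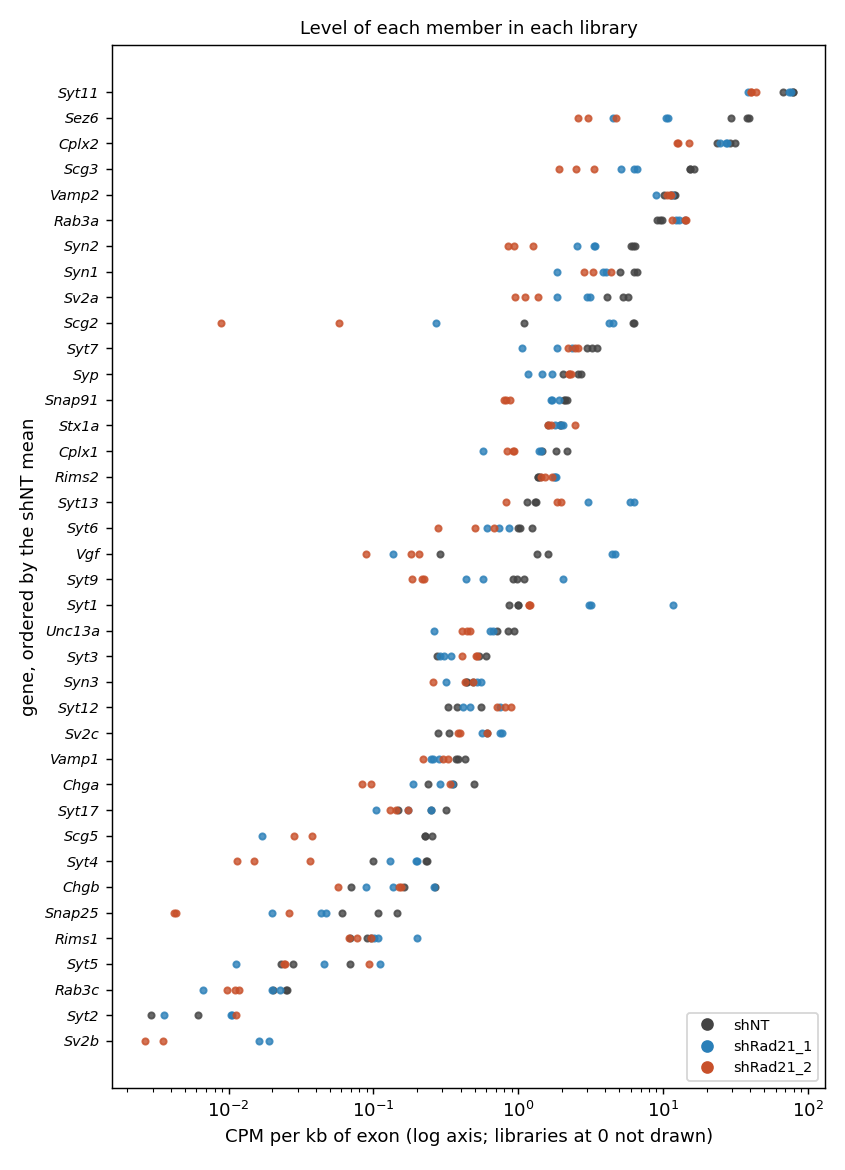
Level of each of the 38 genes in each library, in CPM per kb of exon on a log axis, ordered by the shNT mean; libraries at 0 are not drawn. Syt11 lies highest, and the 3 shRad21_2 points of Sez6, Scg3, Syn2 and Sv2a lie to the left of their 3 shNT points.

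Set against shNT, shRad21_1 shows which of these transcripts differ under the hairpin that left more Rad21 mRNA. Under it 11 of the 35 tested genes were called (edgeR quasi-likelihood test, adjusted p under 0.05 over all genes tested), 4 higher and 7 lower. The higher were the synaptotagmins Syt1 and Syt13 and the docking genes Rab3a and Rims2. The lower were Syt7, the granule genes Scg3 and Scg5, the vesicle genes Syp, Syn2 and Sv2a, and Sez6. Over all genes tested, 4.19% were called higher, 5.63% lower and 9.82% in either direction, beside 11.4%, 20.0% and 31.4% of the list. The median log2 fold change over the 35 genes was -0.40, beside 0.01 over all genes. With the close libraries of shNT and of shRad21_1 summed, so that each counts once, 1 gene was called higher (Syt1) and 1 lower (Scg3); 132 of all genes were then called in place of 1331. The adjusted p of the lost calls then ran from 0.0515 for Sez6 to 0.259 for Rims2. Without replicate 1 of shNT and of shRad21_1, Rims2 lost the call and Syt9, Vgf, Syn1 (-0.71, adjusted p = 0.0330) and Sv2c (1.31, adjusted p = 0.00946) gained it.

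Under shRad21_2 the list moved mostly downward. It had 16 of 35 genes called lower and 2 called higher, Syt12 and Rab3a. The lower genes were Syt4, Syt6, Syt9, Syt11, Scg2, Scg3, Scg5, Snap25, Cplx1, Cplx2, Syn1, Syn2, Sv2a, Snap91, Unc13a and Sez6. This hairpin changed a large share of the transcriptome: 22.5% of all genes tested were called lower, 21.1% higher and 43.6% in either direction. In the list the shares were 45.7% lower, 5.71% higher and 51.4% in either direction, so that its total was near the background and its calls lay mostly on the lower side. Because the list was chosen with earlier results known, this lean to the lower side is a description only. The median log2 fold change of the list was -0.84, beside 0.01 over all genes. Of the 18 calls, 13 were kept in every alternative in which the gene was tested: Syt4, Syt6, Syt9, Syt11, Scg3, Scg5, Snap25, Cplx2, Syn2, Sv2a, Snap91, Rab3a and Sez6. With the close libraries summed, Syt12 (adjusted p = 0.0744), Cplx1 (0.0538), Syn1 (0.113) and Unc13a (0.0785) lost the call. Without replicate 1 of shNT and of shRad21_1, Vgf, Syt7 (-0.36, adjusted p = 0.0354) and Syt17 (-0.92, adjusted p = 0.0224) gained one. Both comparisons use the same shNT libraries.

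Compared directly, shRad21_2 was below shRad21_1 in 12 of 35 genes and above it in 1, the vesicle protein Syp. The 12 were Syt1, Syt4, Syt9, Syt13, Scg2, Scg3, Vgf, Cplx2, Syn2, Sv2a, Snap91 and Sez6. Over all genes 14.4% were lower, 11.9% higher and 26.3% called in either direction, beside 34.3%, 2.86% and 37.1% of the list. The median log2 difference was -0.58 over the list and 0.00 over all genes. With the close libraries summed, Sez6 (adjusted p = 0.0778), Vgf (0.0697) and Syp (0.0523) lost the call. Without replicate 1 of shNT and of shRad21_1, Syt11, Syt12 (0.88, adjusted p = 0.00530), Cplx1 (-0.64, adjusted p = 0.0214), Unc13a (-0.58, adjusted p = 0.00581) and Sv2c (-0.71, adjusted p = 0.0276) gained it. The 2 hairpins left different amounts of Rad21 mRNA, and they differ in sequence, and these cannot be told apart.

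**Figure D2:**
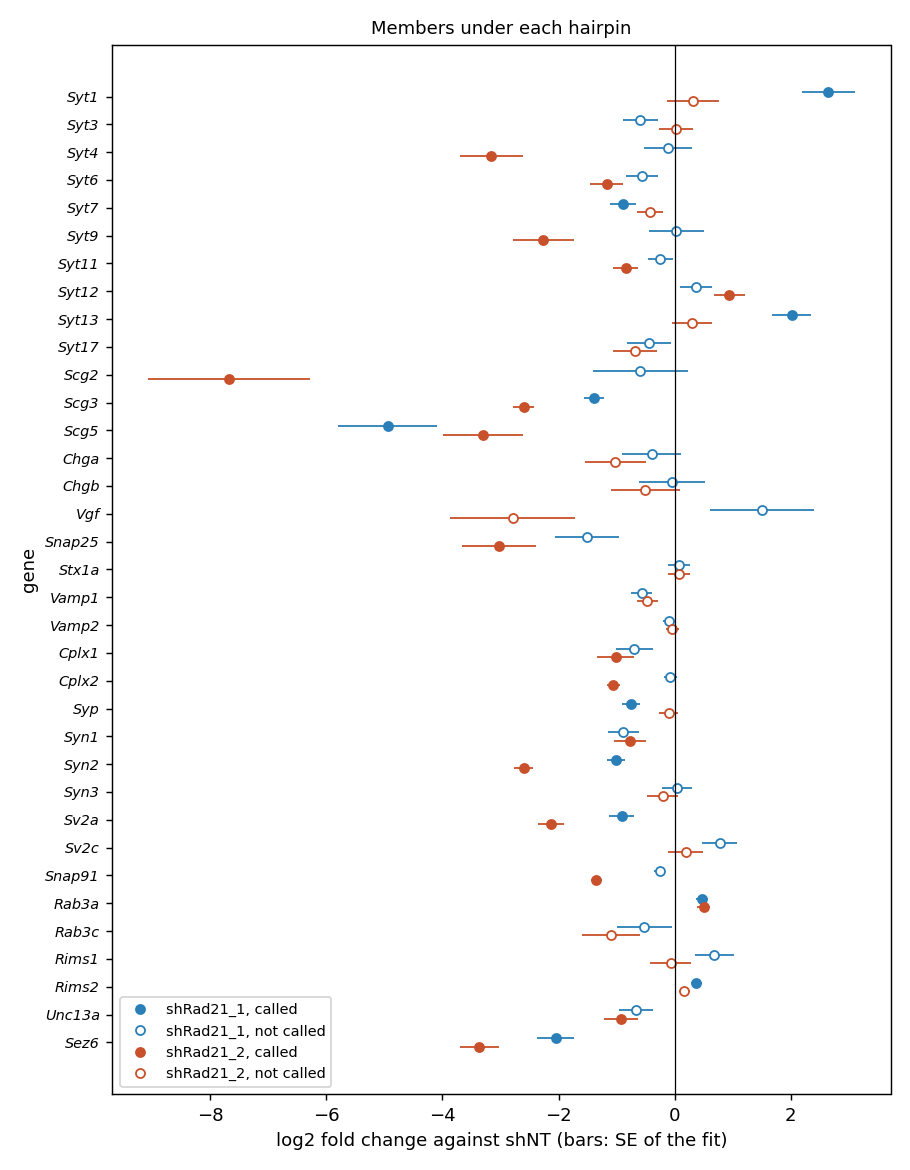
Log2 fold change of the 35 tested genes under shRad21_1 and shRad21_2 against the shared shNT libraries, with bars of 1 SE of the edgeR fit; filled points passed adjusted p under 0.05. Most shRad21_2 points lie left of 0, while the largest rise is that of Syt1 under shRad21_1 at 2.65.

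Among the synaptotagmins, Syt1, which triggers fast synchronous release, had the largest rise of the list. It measured 7.18, 8.36 and 8.36 CPM with shNT, 97.8, 26.5 and 25.6 with shRad21_1, and 9.88, 9.82 and 10.0 with shRad21_2. All 3 shRad21_1 libraries lay above every other library, and replicate 1 lay several times above its group. Syt1 rose by 2.65 in log2 units under shRad21_1 (edgeR adjusted p = 0.00775, SE 0.46) and by 1.71 without replicate 1 (adjusted p = 6.17e-05). The shRad21_2 libraries also lay above shNT, but the difference of 0.31 did not pass the test (adjusted p = 0.598, SE 0.45), except without shRad21_1 replicate 1 (0.32, adjusted p = 0.0213). Between the hairpins Syt1 was lower under shRad21_2 by a log2 value of -2.33 (adjusted p = 0.00561, SE 0.45), or -1.39 without shRad21_1 replicate 1 (adjusted p = 6.46e-06).

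Syt13, a synaptotagmin without calcium-binding residues, was also raised by shRad21_1. Its CPM were 4.98, 4.32 and 4.88 with shNT, 11.4, 23.6 and 22.2 with shRad21_1, and 3.08, 6.92 and 7.48 with shRad21_2. The shRad21_1 libraries lay above all others, and here replicate 1 was the lowest of them. The rise was 2.01 on the log2 scale (edgeR adjusted p = 0.00725, SE 0.34), and it missed the threshold with the close libraries summed (1.85, adjusted p = 0.0925). The difference between hairpins was -1.72 (adjusted p = 0.00602, SE 0.34). Under shRad21_2 the libraries overlapped shNT (0.30, adjusted p = 0.512, SE 0.34).

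Syt4, found on dense-core granules and induced by neuronal activity, was nearly lost under shRad21_2. It had 93 counts over the shNT libraries, 76 over shRad21_1 and 9 over shRad21_2. In CPM this was 0.385, 0.897 and 0.909, then 0.761, 0.774 and 0.505, then 0.0443, 0.0587 and 0.143. The shRad21_2 libraries lay below all others, while shRad21_1 and shNT overlapped. Scaled for library size, the shNT counts were 9.54 times those of shRad21_2 (95% Clopper-Pearson interval 4.81 to 21.5, counting error only). Syt4 fell by 3.16 under shRad21_2 (edgeR adjusted p = 0.00131, SE 0.54), or -3.78 without shRad21_2 replicate 3 (adjusted p = 0.00282). Against shRad21_1 the difference was -3.05 (adjusted p = 0.00386, SE 0.55), or -3.66 without that library (adjusted p = 0.00836). In GENCODE the antisense transcript Gm26658 shares 14.5% of the exonic bases of Syt4, and the strand setting of the counting is not known.

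Syt9, a fast sensor of some central synapses and of granule release, split the shRad21_1 libraries. It measured 4.37, 3.89 and 3.66 CPM with shNT, 8.15, 1.73 and 2.26 with shRad21_1, and 0.886, 0.733 and 0.856 with shRad21_2. Replicate 1 of shRad21_1 lay above shNT and replicates 2 and 3 below it, so the fold change under shRad21_1 was 0.03 (edgeR adjusted p = 0.979, SE 0.47) and turned to -0.99 without replicate 1 (adjusted p = 0.0116). All 3 shRad21_2 libraries lay below every other library, a fall of 2.26 (adjusted p = 0.00651, SE 0.52). The difference between the hairpins was -2.29 (adjusted p = 0.0115, SE 0.53), or -1.27 without shRad21_1 replicate 1 (adjusted p = 0.00187).

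Syt11, which restrains membrane retrieval and is the most abundant gene of the list, was lower under shRad21_2. Its levels were 349, 410 and 411 CPM with shNT, 202, 389 and 396 with shRad21_1, and 229, 210 and 212 with shRad21_2. Replicate 1 of shRad21_1 lay with the shRad21_2 libraries and its other replicates with shNT. The fall under shRad21_2 was 0.84 on the log2 scale (edgeR adjusted p = 0.00930, SE 0.21). Between the hairpins the difference of -0.60 missed the threshold (adjusted p = 0.0592, SE 0.21), and it was -0.85 without shRad21_1 replicate 1 (adjusted p = 6.16e-05).

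Syt6 measured 6.02, 7.22 and 5.81 CPM with shNT, 3.56, 5.04 and 4.31 with shRad21_1, and 1.64, 2.93 and 3.94 with shRad21_2. Both hairpin groups lay below shNT, and only the fall under shRad21_2 passed the test (-1.17, edgeR adjusted p = 0.00778, SE 0.28; under shRad21_1 -0.56, adjusted p = 0.229, SE 0.28). Syt7, a high-affinity sensor for slow and granule release, measured 26.2, 22.5 and 24.3 CPM with shNT, 7.99, 13.9 and 17.5 with shRad21_1, and 16.6, 19.4 and 18.4 with shRad21_2. Again both hairpin groups lay below shNT. The fall of 0.89 under shRad21_1 was called (adjusted p = 0.0347, SE 0.23), but adjusted p passed 0.05 without any 1 shNT library (0.0887 to 0.107), without shRad21_1 replicate 2 (0.0743), and without shRad21_2 replicate 2 (0.0516) or 3 (0.0569). Under shRad21_2 the difference missed the threshold (-0.42, adjusted p = 0.1501, SE 0.22) and passed it without shRad21_1 replicate 1 (adjusted p = 0.0107). Genes on the opposite strand share 8.67% of the exonic bases of Syt6 (Atg4a-ps) and 5.13% of those of Syt7 (Gm26859).

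Syt12, which does not bind calcium, was the only synaptotagmin of the list called higher under shRad21_2. Its CPM were 3.05, 1.82 and 2.11 with shNT, 4.13, 2.56 and 2.29 with shRad21_1, and 3.94, 4.93 and 4.51 with shRad21_2. The shRad21_2 libraries lay above shNT and overlapped shRad21_1. The rise was 0.94 (edgeR adjusted p = 0.0174, SE 0.27), which did not hold without shNT replicate 2 (adjusted p = 0.0726) or 3 (0.0648) or shRad21_2 replicate 2 (0.0521). GENCODE places the transcript A930001C03Rik on the opposite strand over 17.2% of the exonic bases of Syt12, and no source used here says whether counting used strand. Of the remaining synaptotagmins, Syt3 ranged from 0.852 to 1.86 CPM and Syt17 from 0.544 to 1.66 over all libraries, and neither was called in any comparison. For Syt3 the shRad21_2 libraries (1.28, 1.58 and 1.63 CPM) lay above those of shRad21_1 (0.897, 1.07 and 0.957 CPM). That log2 difference of 0.62 missed the threshold (edgeR adjusted p = 0.159, SE 0.30). Syt2 never exceeded 0.0856 CPM and Syt5 never exceeded 0.266 CPM.

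**Figure D3:**
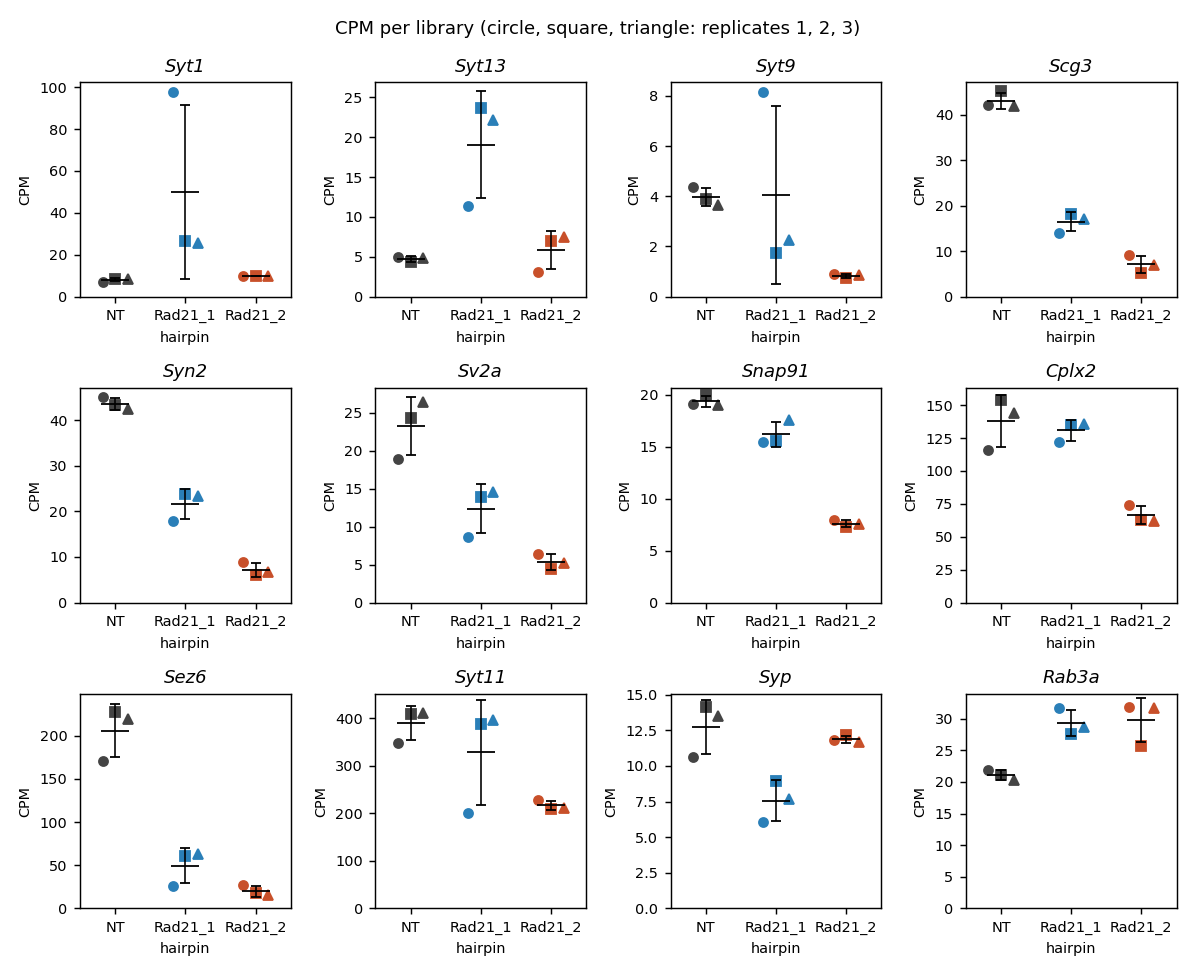
CPM per library for 12 genes of the list; circles, squares and triangles are replicates 1, 2 and 3, and bars give the mean and 1 SD of each hairpin group. The 3 shRad21_2 points of Scg3, Syn2, Sv2a, Snap91 and Cplx2 lie below all points of both other groups, and shRad21_1 replicate 1 stands apart for Syt1, Syt9 and Syt11.

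Of the 6 granule cargo genes, 2 were called lower under shRad21_1 and 3 under shRad21_2, beside 5.63% and 22.5% of all genes. Summed over the 6, the level was 47.7 to 67.3 CPM with shNT, 15.9 to 43.9 with shRad21_1 and 6.72 to 10.5 with shRad21_2. Scg3, a granin that binds cholesterol-rich granule membrane, was the most regular of them. It measured 42.1, 45.1 and 41.9 CPM with shNT, 14.1, 18.2 and 17.2 with shRad21_1, and 9.10, 5.22 and 6.85 with shRad21_2. The 3 groups did not overlap. Scg3 fell by 1.39 in log2 units under shRad21_1 (edgeR adjusted p = 0.00180, SE 0.17) and fell by 2.60 under shRad21_2 (adjusted p = 8.42e-06, SE 0.18). Between hairpins it differed by -1.22 (adjusted p = 0.00143, SE 0.18). All 3 calls were kept in each of the 19 alternatives.

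Scg2, secretogranin II, the precursor of the peptide secretoneurin, showed the largest fall. Its levels were 2.78, 15.7 and 15.8 CPM with shNT, 0.680, 10.7 and 11.4 with shRad21_1, and 0.0221, 0.147 and 0 with shRad21_2. Every shRad21_2 library lay below all others, and replicate 1 of shNT and of shRad21_1 lay well below its group. The counts were 1481 over shNT and 6 over shRad21_2, a ratio of 228 after scaling (95% interval 104 to 622, counting error only). The fitted fall was 7.68 (edgeR adjusted p = 0.00179, SE 1.39), or -9.52 without shRad21_2 replicate 2, which held 5 of the 6 counts (adjusted p = 0.00802), and limma-voom gave an adjusted p of 0.0755. Between the hairpins the difference was -7.08 (adjusted p = 0.00609, SE 1.41), -8.93 without shRad21_2 replicate 2 (adjusted p = 0.0181), with a limma-voom adjusted p of 0.158.

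Scg5, the chaperone 7B2 of prohormone convertase 2, was low in shNT cells and close to 0 under both hairpins. It had 46 counts over the shNT libraries (0.357, 0.354 and 0.399 CPM), 1 count over shRad21_1 (0, 0.0267 and 0 CPM) and 4 counts over shRad21_2 (0.0443, 0.0587 and 0 CPM). Both hairpin groups lay below all 3 shNT libraries. The scaled shNT counts were 41.6 times those of shRad21_1 (95% interval 7.10 to 1677, counting error only) and 10.6 times those of shRad21_2 (3.88 to 40.6). The edgeR adjusted p was 0.00772 under shRad21_1, with a fitted log2 value of -4.94 that is set by a single count, and -6.87 without shRad21_1 replicate 2, which holds that count (adjusted p = 0.0249). With the close libraries summed it was 0.0636. Under shRad21_2 the fall was 3.29 (adjusted p = 0.00370, SE 0.69).

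Vgf, a granin-like precursor of neuropeptides, differed between libraries of a group as well as between the hairpins. It measured 0.852, 4.77 and 3.99 CPM with shNT, 0.408, 13.2 and 13.8 with shRad21_1, and 0.266, 0.616 and 0.542 with shRad21_2. Replicate 1 of shNT and of shRad21_1 was low, near the shRad21_2 range, and the other shRad21_1 libraries were the highest of all. Under shRad21_1 the difference of 1.502 missed the threshold (edgeR adjusted p = 0.326, SE 0.90), and it was 1.62 without replicate 1 of shNT and of shRad21_1 (adjusted p = 0.00271). Under shRad21_2 the difference of -2.79 missed it too (adjusted p = 0.0593, SE 1.08), and it passed without shNT replicate 1 (-3.23, adjusted p = 0.0418) or shRad21_1 replicate 1 (-2.80, adjusted p = 0.00214). DESeq2 (adjusted p = 0.0342) and the replicate block (0.0114) also called this difference, whereas limma-voom gave 0.320. The fit of 2 groups and the filter of 1 count called it as well. Between hairpins it differed by -4.29 (adjusted p = 0.0178, SE 1.09), a call lost without shRad21_2 replicate 1 (adjusted p = 0.0663) or 3 (0.0638), with limma-voom (0.243) and with the close libraries summed (0.0697). The granins Chga and Chgb were low, between 0.228 and 1.37 CPM and between 0.155 and 0.732 CPM, and were called in no comparison; Chga passed under shRad21_2 without shRad21_2 replicate 1 (-2.01, adjusted p = 0.0104).

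Replicate 1 was also the lowest library of shNT and of shRad21_1 for some genes outside the list. Fos, an immediate early gene that encodes a component of AP-1, measured 93.3, 137 and 140 CPM with shNT, 9.21, 116 and 119 with shRad21_1, and 14.8, 15.7 and 17.1 with shRad21_2. Ptprn, a granule membrane protein of the phosphatase family, measured 7.07, 19.0 and 19.4 CPM, then 7.86, 29.96 and 34.97, then 1.71, 1.14 and 0.999. The dip of Fos in shNT replicate 1 was smaller than those of Scg2 and Vgf. Replicate 1 of shRad21_1 was lower than all shRad21_2 libraries for Fos and higher than all of them for Ptprn. The 14 CREB and activity-linked factors summed to 887 to 1291 CPM with shNT, 518 to 1377 with shRad21_1 and 590 to 629 with shRad21_2. Their part in the result was not tested. Of these 14 factors, 4 fell under shRad21_2 (Fos, Fosb, Egr1 and Junb), 2 rose (Atf1 and Crtc2), and 0 were called under shRad21_1 by edgeR, where 0 had an unadjusted p under 0.05 and DESeq2 and limma-voom also called 0. The share of calls among these factors under shRad21_2 was near the 43.6% of all genes. The 3 with the smallest p there were Fosb (-4.40, edgeR adjusted p = 0.00241), Fos (-2.96, adjusted p = 0.0067) and Atf1 (0.35, adjusted p = 0.0107).

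**Figure D4:**
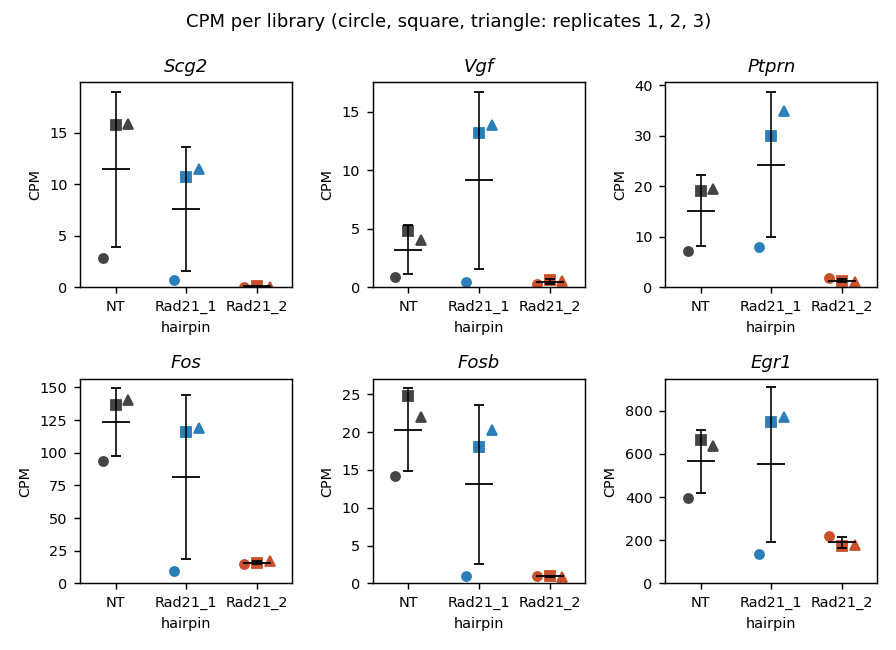
CPM per library for the granule genes Scg2, Vgf and Ptprn (top) and the immediate early genes Fos, Fosb and Egr1 (bottom); circles, squares and triangles are replicates 1, 2 and 3, and bars give the mean and 1 SD. Replicate 1 of shNT and of shRad21_1 lies below replicates 2 and 3 in all 6 panels. The panels are a selection and do not show how general this is. Egr1 is drawn in place of Atf1, which had a smaller p under shRad21_2.

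Of the SNARE and complexin genes, 0 of 6 were called under shRad21_1 by edgeR, beside 9.82% of all genes. Of the 6, 2 had an unadjusted p under 0.05. DESeq2 called 1, Vamp1 (adjusted p = 0.0487), and limma-voom called 0. Under shRad21_2, 3 of 6 were lower, beside 22.5% of all genes. Snap25, the plasma membrane SNARE of neurons, had 90 counts over the shNT libraries, 28 over shRad21_1 and 10 over shRad21_2. This was 0.412, 0.991 and 0.732 CPM, then 0.136, 0.293 and 0.319, then 0.177, 0.0293 and 0.0285. Both hairpin groups lay below shNT and overlapped each other. The fall of 3.03 under shRad21_2 passed the test (edgeR adjusted p = 0.00408, SE 0.64), and was -4.48 without shRad21_2 replicate 1 (adjusted p = 0.00251). The difference under shRad21_1 did not pass (-1.51, adjusted p = 0.114, SE 0.55).

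Cplx2, the more abundant complexin, measured 116, 154 and 144 CPM with shNT, 122, 135 and 136 with shRad21_1, and 74.1, 62.7 and 62.0 with shRad21_2. The shRad21_2 libraries lay below all others, whereas shRad21_1 overlapped shNT. Cplx2 fell by 1.06 under shRad21_2 (edgeR adjusted p = 9.94e-05, SE 0.12) and the hairpins differed by -0.98 (adjusted p = 0.000443, SE 0.12). Under shRad21_1 the difference was -0.08 (adjusted p = 0.727, SE 0.11). Cplx1 measured 4.78, 4.01 and 3.19 CPM, then 1.25, 3.12 and 3.03, then 1.84, 2.05 and 2.03, with both hairpin groups below shNT. Its fall of 1.02 under shRad21_2 (adjusted p = 0.0249, SE 0.31) lost the call without shNT replicate 1 (adjusted p = 0.0789) or 2 (0.0647), or without shRad21_2 replicate 1 (0.0730), 2 (0.0572) or 3 (0.0627).

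The remaining SNAREs were called in no comparison in the main edgeR fit. Vamp2, the main vesicle SNARE of the brain, ranged from 34.1 to 45.8 CPM over the 9 libraries and overlapped between all groups (log2 difference -0.09, SE 0.11 under shRad21_1 and -0.04, SE 0.11 under shRad21_2). Stx1a, its syntaxin partner, ranged from 4.28 to 6.62 CPM, with log2 differences of 0.07 (SE 0.19) under each hairpin. Vamp1 measured 4.34, 3.92 and 3.77 CPM with shNT, 2.64, 2.56 and 2.90 with shRad21_1, and 3.08, 3.34 and 2.25 with shRad21_2. Both hairpin groups lay below shNT, but the differences of -0.57 (edgeR adjusted p = 0.0804, SE 0.18) and -0.47 (adjusted p = 0.0616, SE 0.18) missed the threshold. DESeq2 and the fit of 2 groups called the first. The second was called without shRad21_1 replicate 1, without shRad21_2 replicate 2, and with library totals in place of TMM scaling.

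Among vesicle membrane genes and synapsins, 3 of 7 tested were lower under shRad21_1 and 4 under shRad21_2 by edgeR, beside 5.63% and 22.5% of all genes, and DESeq2 and limma-voom called 4 under shRad21_1. Summed over the group, the level was 122 to 131 CPM with shNT, 63.6 to 90.0 with shRad21_1 and 47.3 to 59.3 with shRad21_2. Syn2, a synapsin that tethers vesicles to the cytoskeleton, was lowest under shRad21_2 and intermediate under shRad21_1. It measured 45.0, 43.3 and 42.4 CPM with shNT, 17.9, 23.8 and 23.3 with shRad21_1, and 8.90, 6.01 and 6.59 with shRad21_2. The 3 groups did not overlap. Syn2 fell by 1.01 in log2 units under shRad21_1 (edgeR adjusted p = 0.00453, SE 0.15) and fell by 2.60 under shRad21_2 (adjusted p = 4.32e-06, SE 0.16), with -1.59 between the hairpins (adjusted p = 0.000171, SE 0.16). With the close libraries summed, the fall under shRad21_1 just missed the threshold (adjusted p = 0.0536). Timp4 lies on the opposite strand within Syn2 and shares 1.28% of its exonic bases.

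Sv2a, the vesicle glycoprotein bound by levetiracetam, had the same order. Its CPM were 19.0, 24.4 and 26.4 with shNT, 8.64, 13.9 and 14.6 with shRad21_1, and 6.40, 4.40 and 5.19 with shRad21_2. The 3 groups did not overlap. Sv2a fell by 0.91 under shRad21_1 (edgeR adjusted p = 0.0264, SE 0.21) and fell by 2.12 under shRad21_2 (adjusted p = 7.80e-05, SE 0.22), and the hairpins differed by -1.21 (adjusted p = 0.00417, SE 0.22). Its shRad21_1 call did not hold without shNT replicate 2 (adjusted p = 0.0985) or 3 (0.112). Its relative Sv2c ranged from 2.73 to 7.44 CPM and was called in no comparison; without shNT replicate 1 the difference under shRad21_1 was 1.18 (adjusted p = 0.0297). Sv2b had 0 counts with shNT, 11 with shRad21_1, in replicates 1 and 3 only, and 2 with shRad21_2. Scaled for library size, the lower 95% Clopper-Pearson limit of the ratio of shRad21_1 to shNT counts of Sv2b was 2.78, which covers counting error only, and the spread between libraries was not tested.

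Snap91, the clathrin adaptor AP180 that retrieves vesicle membrane, measured 19.1, 20.0 and 19.0 CPM with shNT, 15.4, 15.6 and 17.5 with shRad21_1, and 7.95, 7.24 and 7.56 with shRad21_2. The 3 groups did not overlap, and the shRad21_2 libraries lay close together. Snap91 fell by 1.35 under shRad21_2 (edgeR adjusted p = 9.63e-06, SE 0.10) and the hairpins differed by -1.09 (adjusted p = 9.34e-05, SE 0.10). Under shRad21_1 the difference of -0.26 did not pass (adjusted p = 0.117, SE 0.10).

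Syp, synaptophysin, the most used marker protein of synaptic vesicles, was called lower under shRad21_1, and its level differed between the hairpins. It measured 10.6, 14.1 and 13.46 CPM with shNT, 6.06, 8.96 and 7.66 with shRad21_1, and 11.8, 12.1 and 11.6 with shRad21_2. The shRad21_1 libraries lay below all others, and shRad21_2 lay within the shNT range. The fall was 0.75 (edgeR adjusted p = 0.0183, SE 0.16), lost without shNT replicate 2 (adjusted p = 0.0877) or 3 (0.0803) or shRad21_1 replicate 3 (0.0525). The difference between the hairpins, 0.65, was itself called (adjusted p = 0.0163, SE 0.16), and with the close libraries summed its adjusted p was 0.0523. An antisense transcript, Gm14703, shares 16.8% of the exonic bases of Syp in GENCODE. Syn1 measured 16.6, 20.9 and 21.7 CPM with shNT, 6.12, 13.3 and 12.7 with shRad21_1, and 14.4, 10.9 and 9.45 with shRad21_2, with both hairpin groups below shNT. Under shRad21_1 the difference of -0.88 missed the threshold with edgeR (adjusted p = 0.0665, SE 0.27) and was called by DESeq2 (adjusted p = 0.0101) and limma-voom (0.0441), and the hairpins differed by 0.11 (adjusted p = 0.781, SE 0.27). The fall of Syn1 of 0.77 under shRad21_2 (adjusted p = 0.0403, SE 0.27) did not hold without shNT replicate 2 (0.106) or 3 (0.117) and without shRad21_2 replicate 2 (0.107) or 3 (0.135). Syn3 ranged from 3.17 to 6.83 CPM and was called in no comparison. Timp3, on the opposite strand, shares 14.1% of the exonic bases of Syn3.

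Of the 5 docking and priming genes, 2 were called higher under shRad21_1, beside 4.19% of all genes, and 1 higher and 1 lower under shRad21_2, shares near the 21.1% and 22.5% of all genes. Rab3a, the vesicle GTPase that recruits RIM, measured 21.9, 21.1 and 20.2 CPM with shNT, 31.7, 27.5 and 28.7 with shRad21_1, and 31.8, 25.7 and 31.7 with shRad21_2. All 6 hairpin libraries lay above the 3 shNT libraries. Rab3a rose by 0.48 under shRad21_1 (edgeR adjusted p = 0.0207, SE 0.10) and by 0.50 under shRad21_2 (adjusted p = 0.00395, SE 0.10). The shRad21_1 call did not hold without shNT replicate 2 (adjusted p = 0.0863) or 3 (0.102) or shRad21_1 replicate 3 (0.0535). Between the hairpins the difference was 0.02 (adjusted p = 0.896, SE 0.10).

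Rims2, an active zone scaffold, measured 14.1, 14.3 and 14.7 CPM with shNT, 18.3, 18.6 and 18.9 with shRad21_1, and 14.9, 17.7 and 15.8 with shRad21_2. The 3 shRad21_1 libraries lay above all others. The rise of 0.37 (edgeR adjusted p = 0.0343, SE 0.09) was small, and adjusted p ran from 0.0840 to 0.131 without any 1 shNT library and stood at 0.0971 and 0.1003 without shRad21_1 replicates 2 and 3. Unc13a, the priming factor Munc13-1, measured 9.02, 10.7 and 11.8 CPM, then 3.29, 8.06 and 8.48, then 5.82, 5.60 and 5.14, with both hairpin groups below shNT. It fell by 0.93 under shRad21_2 (adjusted p = 0.0268, SE 0.29), a call lost without shNT replicate 2 (0.0684) or 3 (0.0873) and without shRad21_2 replicate 1 (0.0598), 2 (0.0664) or 3 (0.0841). Rims1 ranged from 0.499 to 1.47 CPM and Rab3c from 0.0800 to 0.307 CPM, and neither was called in any comparison. Rims1 measured 1.47, 0.747 and 0.798 CPM with shRad21_1, above all other libraries (0.68 against shNT, edgeR adjusted p = 0.234, SE 0.34). Rab3c measured 0.302, 0.307 and 0.244 CPM with shNT (35 counts). With shRad21_2 it lay lower, at 0.133, 0.117 and 0.143 CPM (15 counts, log2 difference -1.09, adjusted p = 0.0975, SE 0.49).

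Sez6, a membrane protein that shapes dendrites and synapses, was the second most abundant gene of the list per length and fell under both hairpins. It measured 171, 228 and 219 CPM with shNT, 26.0, 60.5 and 62.7 with shRad21_1, and 27.3, 17.5 and 15.0 with shRad21_2. All 6 hairpin libraries lay far below shNT, and the hairpin groups overlapped through shRad21_1 replicate 1. Sez6 fell by 2.05 in log2 units under shRad21_1 (edgeR adjusted p = 0.00501, SE 0.32) and fell by 3.36 under shRad21_2 (adjusted p = 6.07e-05, SE 0.34). With the close libraries summed, the first of these had an adjusted p of 0.0515. The difference between the hairpins of -1.31 was called (adjusted p = 0.0150, SE 0.32) and lost without shRad21_1 replicate 2 (adjusted p = 0.0524) or 3 (0.0535) or shRad21_2 replicate 2 (0.0504) or 3 (0.0641).

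**Figure D5:**
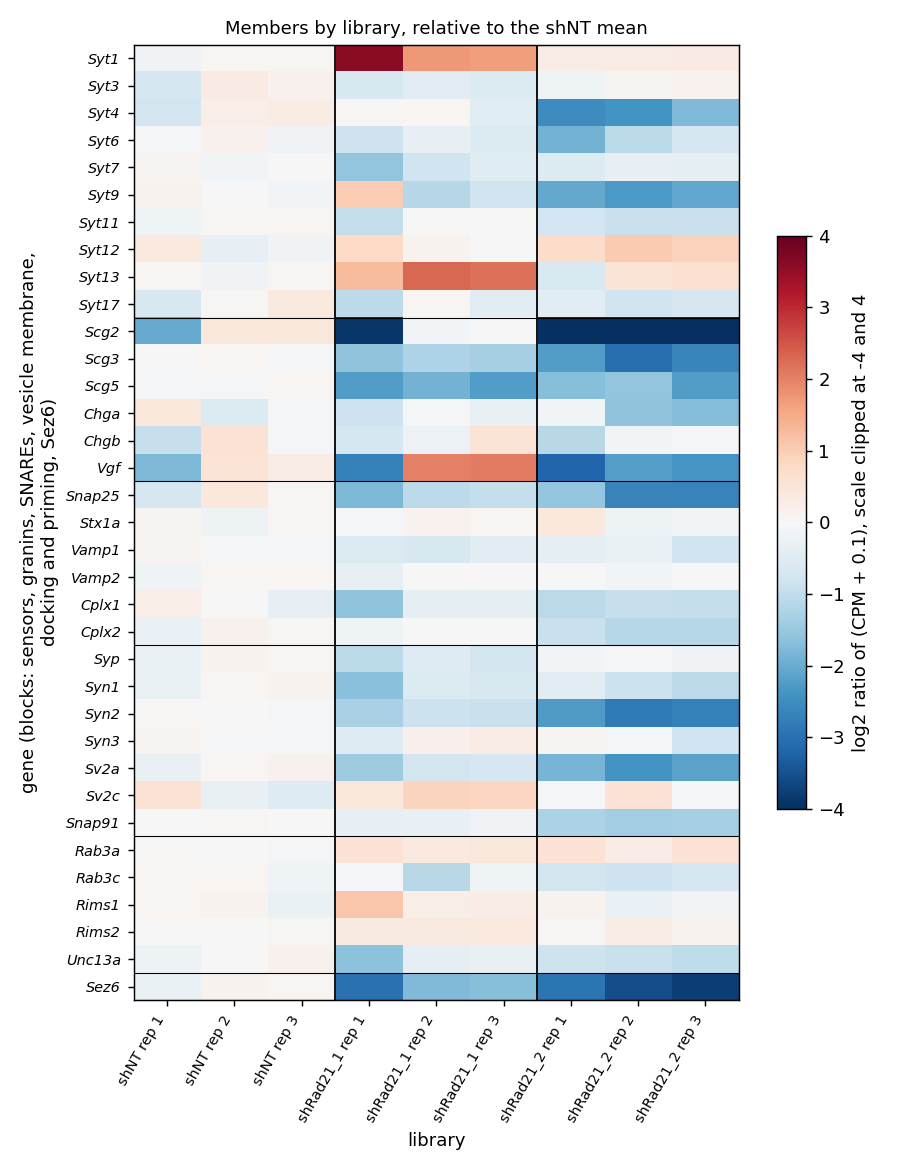
Log2 ratio of CPM (plus 0.1) in each library to the shNT mean for the 35 tested genes, in blocks by role, on a colour scale clipped at -4 and 4. Blue marks lower and red higher values; Scg2, Scg3, Syn2, Sv2a and Sez6 are blue in all 3 shRad21_2 libraries, and replicate 1 of shRad21_1 differs in shade from replicates 2 and 3 for Syt1, Syt9, Scg2 and Vgf.

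Other genes of the same machinery were counted from lists by function, and all shares are to be read beside the background of 22.5% lower and 21.1% higher under shRad21_2. Of 12 tested genes of prohormone processing and other granule functions, 7 fell and 1 rose under shRad21_2. Under shRad21_1 edgeR called 1, Cadps, beside 9.82% of all genes. Cadps, which primes granules, fell by 2.69 under shRad21_2 (edgeR adjusted p = 1.53e-05, SE 0.21) and fell by 1.11 under shRad21_1 (adjusted p = 0.00832, SE 0.20). Cpe, the carboxypeptidase that trims prohormones, fell by 1.83 under shRad21_2 (adjusted p = 0.000108, SE 0.20). Under shRad21_1 its difference of -0.68 missed the threshold with edgeR (adjusted p = 0.0578, SE 0.20), and it was called with the replicate block (-0.72, adjusted p = 0.0103), DESeq2 (0.00753) and limma-voom (0.0403). The value of Ptprn under shRad21_2 was -3.54 (adjusted p = 0.00117, SE 0.59). Of 20 other active zone and priming genes, 7 fell and 2 rose under shRad21_2. Rab3b, a close relative of Rab3a, moved the opposite way to it, from 366 to 441 CPM with shNT to 181 to 273 with shRad21_1 and 40.7 to 71.8 with shRad21_2. Rab3b fell by 0.96 under shRad21_1 (adjusted p = 0.0221, SE 0.22) and fell by 2.96 under shRad21_2 (adjusted p = 1.51e-05, SE 0.23). Rims4 fell by 2.24 (adjusted p = 0.00156, SE 0.40) and the granule GTPase Rab27a by 1.24 under shRad21_2 (adjusted p = 0.00364, SE 0.26).

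Of 9 other tested synaptotagmin-like genes, 3 fell and 2 rose under shRad21_2, with Sytl2 falling by 3.47 (edgeR adjusted p = 0.000411, SE 0.49), Esyt1 by 0.57 (adjusted p = 0.00961, SE 0.14) and the calcium sensor Doc2a rising by 0.78 (adjusted p = 0.00155, SE 0.14). Of 21 other SNARE and disassembly genes, 6 fell and 2 rose. Stxbp6 rose by 0.84 (adjusted p = 0.000139, SE 0.10), while the broadly expressed SNAP-25 relatives Snap23 and Snap47 fell by 0.56 (adjusted p = 0.00129, SE 0.10) and 0.61 (adjusted p = 0.00253, SE 0.12). Of 16 other vesicle membrane genes, 6 were called lower under shRad21_2 by edgeR, while DESeq2 and limma-voom each called 1 higher. Svop fell by 1.56 (adjusted p = 0.000124, SE 0.18), Scamp5 by 0.80 (adjusted p = 0.000124, SE 0.09) and Scamp1 by 0.47 (adjusted p = 0.00293, SE 0.09). Of 16 vesicle retrieval genes, 5 fell and 3 rose; Ston2 fell by 1.90 (adjusted p = 0.000111, SE 0.21), the endophilin Sh3gl2 by 2.34 (adjusted p = 0.000800, SE 0.37) and Eps15 by 0.45 (adjusted p = 0.00138, SE 0.08). The 16 retrieval genes summed to 1589 to 1623 CPM with shNT and 1617 to 1669 with shRad21_2.

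Of the 10 genes of the REST repressor and its partners, 1 rose and 1 fell under shRad21_2, beside 21.1% and 22.5% of all genes. Under shRad21_1, 0 rose and 1 fell by edgeR, Hdac1, beside 4.19% and 5.63% of all genes. Rest measured 32.8, 34.9 and 33.8 CPM with shNT, 48.0, 39.6 and 38.4 with shRad21_1, and 31.2, 46.2 and 27.8 with shRad21_2, and neither difference passed the test (0.31, edgeR adjusted p = 0.283, SE 0.17 and 0.05, adjusted p = 0.830, SE 0.17). Sin3a, its corepressor, rose by 0.45 (adjusted p = 0.00140, SE 0.08) and Hdac2, a deacetylase of the complex, fell by 0.44 under shRad21_2 (adjusted p = 0.00223, SE 0.08). The demethylase Kdm1a stood 0.24 higher without passing (adjusted p = 0.0538, SE 0.09).

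Markers of other cell types moved beside these genes. Counts in these lists are to be read beside all genes tested, of which 21.1% rose and 22.5% fell under shRad21_2. Under shRad21_1 these shares were 4.19% and 5.63%. Of 16 tested neuron markers, 4 rose and 6 fell under shRad21_2, and 2 rose and 3 fell under shRad21_1. Their 20 genes summed to 1477 to 1611 CPM with shNT, 1361 to 1443 with shRad21_1 and 1232 to 1408 with shRad21_2. Of 10 tested astrocyte markers, 8 were called lower under shRad21_2 by edgeR (DESeq2 called 8 lower and 1 higher), and their 11 genes summed to 1308 to 1355, 711 to 1208 and 449 to 524 CPM. The lowest of the shRad21_1 libraries in that sum was replicate 1. Of 9 tested oligodendrocyte lineage markers, 7 fell and 1 rose under shRad21_2, and their 12 genes summed to 2865 to 2998, 3163 to 3341 and 2746 to 3149 CPM. Their part in the result was not tested. The 8 microglial markers summed to 1.82 to 3.16 CPM with shNT, 1.38 to 2.47 with shRad21_1 and 0.343 to 0.763 with shRad21_2, and Aif1, Cx3cr1 and C1qa had 0 counts in every library. P2ry12, the only one of them tested, fell by 2.37 under shRad21_2 (edgeR adjusted p = 0.00118, SE 0.40) and differed by -1.98 between the hairpins (adjusted p = 0.00665, SE 0.40).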

How the data were processed

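Gene counts of 9 libraries were analysed, 3 for each of 3 hairpins. The deposited values are raw counts per gene symbol, whole numbers in every column, and per the submitters' processing notes the reads passed through FastQC, cutadapt, Trim Galore, Bowtie2 and RSEM on build mm10. Tool versions, annotation, strand setting and rounding are given in no source used here. Members and other gene lists were chosen with earlier results of these data known. All libraries entered 1 fit of 3 group means (edgeR 4.0.16 quasi-likelihood test in R 4.3.3, TMM scaling, filterByExpr), two-sided, with Benjamini-Hochberg adjustment over 13560 genes and calls at adjusted p under 0.05. SE is the log2 fold change divided by the root of the F statistic. Exonic lengths came from GENCODE M21 and promoters from RefSeq. Genes named outside the 38 were Rad21 and, from each pathway list, the 3 with the smallest p under shRad21_2; others named where few were called were chosen after their values were seen. Alternatives used DESeq2 1.42.0, limma 3.58.1, other scalings and filters, fits of 2 groups, a replicate block, each library left out, close libraries summed, and replicate 1 of shNT and of shRad21_1 removed. Same-numbered shNT and shRad21_1 libraries deviated together from their group means (correlations 0.29, 0.17 and 0.18). In both groups replicate 1 stood apart from the close replicates 2 and 3, and a shared difference of replicate 1 would also give positive values. These correlations therefore do not establish a pairing, and the labels state none. The block left the same counts of members called under shRad21_1.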

Additional observations from a re-analysis of the deposited data

How the results depend on the processing

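Of all genes, 1331 were called under shRad21_1, against 2042 with the DESeq2 Wald test, 132 with the close libraries summed and 460 to 1599 with 1 library left out. The list's 4 higher and 7 lower calls became 1 and 1 with the close libraries summed, and 2 to 5 and 4 to 8 with 1 library left out. Under shRad21_2, 5917 genes were called, 3710 with the close libraries summed and 4263 to 6858 with 1 library left out; the list's 2 higher and 16 lower calls became 1 and 13 with the close libraries summed, and 1 to 3 and 13 to 19 with 1 library left out. Between the hairpins, 3563 genes were called, 2255 in the fit of 2 groups, 1271 with the close libraries summed and 2045 to 4486 with 1 library left out; the list's 1 higher call became 0 with the close libraries summed and 2 without replicate 1 of shNT and of shRad21_1, and ran from 1 to 2 with 1 library left out, and its 12 lower calls from 10 to 15. Summing leaves fewer samples; the cause of the other shifts was not tested. The replicate block gave 4 higher and 7 lower calls in the list under shRad21_1, 2 and 16 under shRad21_2 (Syn1 lost at adjusted p = 0.0601, Vgf gained at 0.0114) and 1 and 12 between the hairpins; 5 of 9 libraries correlated best with their own number. The direction of Syt9 under shRad21_1, 0.03, was 0.39 without shRad21_1 replicate 2 and turned to -0.99 without shRad21_1 replicate 1 and to -0.92 without replicate 1 of shNT and of shRad21_1. Depth limits Syt2, Syt5, Sv2b, Scg5, Snap25, Rab3c and Chgb. It also limits the size of the falls of Syt4 (9 counts) and Scg2 (6 counts) under shRad21_2.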
